A study of Rattus norvegicus with 12 samples.

Results

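RNA sequencing of primary rat oligodendrocyte precursor cells (OPCs) was compared with and without galinex over both cytokine backgrounds, to find genes that shifted the same way in each. All 12 of the 12 libraries of the series were used, and their treatment labels alone assigned them to 6 libraries with galinex (GAL and CTK2+GAL) and 6 without (CTL and CTK-2). The OPCs were shaken off mixed glial cultures from the cortex of newborn Sprague-Dawley rats of both sexes and kept in differentiation medium with thyroid hormone. A mix of IFN-γ, TNF-α and IL-1β (2 ng/mL of each) was given to CTK-2 and CTK2+GAL 6 h ahead of 10 nM galinex or DMSO, and RNA was taken 24 h after galinex. GPR17, the receptor that galinex activates, is coupled to inhibitory G proteins and appears in OPCs that have begun to differentiate. It disappears again as oligodendrocytes mature, and prolonged GPR17 expression holds cells at an immature stage.

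Library totals were 5836987, 5207182 and 6169733 read pairs in CTL and 2600797, 6064182 and 5908813 in GAL (replicates 1 to 3). They were 4718825, 5475929 and 5329374 in CTK-2 and 5080780, 5562951 and 8978185 in CTK2+GAL. GAL 1 therefore carried the largest counting error. The labels do not say whether the 3 replicates of a group came from separate cultures, so all p-values measure the spread between these samples, which may in part be technical. In bulk RNA, fewer cells of a type and less RNA per cell cannot be told apart. Of the 13348 tested genes, 1756 (13.2%) had a symbol, and each of these had been listed by the study as different between CTK-2 and CTL. Their galinex differences within 1 background are not independent of that choice, since CTL and CTK-2 are the baselines here. The genes for GPR17, Mbp and Olig2 were without a symbol, so no values are given for them, although they may be among the tested genes.

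The OPC markers with a symbol were present in every library. Ptprz1, a receptor phosphatase of OPCs, had 1909, 1725 and 1885 CPM (read pairs scaled by TMM-adjusted library size) in CTL, 1910, 1801 and 1866 in GAL, 2921, 2779 and 2915 in CTK-2 and 2944, 2909 and 2787 in CTK2+GAL. Cspg4, which encodes the NG2 proteoglycan, had 127, 122 and 158 CPM in CTL, 133, 108 and 132 in GAL, 567, 508 and 561 in CTK-2 and 529, 517 and 484 in CTK2+GAL. The galinex libraries overlapped those without galinex for both markers in both backgrounds. Log2 differences with galinex were 0.01 (SE 0.03) for Ptprz1 and −0.11 (SE 0.06) for Cspg4, and neither passed the test.

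Replicate 3 of both groups without cytokines stood apart. These groups, CTL and GAL, are called untreated below for the lack of cytokines alone, since GAL received galinex. On the first principal component, which held 76.5% of the variance, CTL 3 lay at −23.8 and GAL 3 at −28.2, against −62.9 to −58.6 for the other untreated libraries and 48.0 to 49.8 for the cytokine libraries. B2m, the light chain of MHC class I, had 21.5, 27.0 and 792 CPM in CTL and 22.9, 32.2 and 823 in GAL. It had 2933, 3304 and 3111 CPM in CTK-2 and 3047, 3429 and 3571 in CTK2+GAL. Galinex and vehicle libraries of the same number were thus alike in B2m, and the galinex difference of 0.09 had an SE of 0.70. Ifi47, an interferon-inducible GTPase, had 0, 0 and 41.7 CPM in CTL and 0.776, 0 and 32.7 in GAL. The cause of this likeness was not tested.

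With cytokine state as a block, the quasi-likelihood test of edgeR, adjusted by Benjamini-Hochberg, called 1 of 13348 genes for galinex (0.00749%), and DESeq2 called 1. In this fit, none of the 13348 genes (0%) also had an absolute log2 difference of at least 0.59. An unadjusted p under 0.05 was reached by 876 genes (6.56%), 419 higher and 457 lower with galinex, and by 618 genes with DESeq2. For scale, the same model and libraries called 7088 genes for the cytokines (53.1%), with 2493 (18.7%) past 0.59 and 7744 (58.0%) at an unadjusted p under 0.05. The median absolute log2 difference was 0.07 for galinex and 0.25 for the cytokines. Within the background without cytokines, 0 genes passed with edgeR or DESeq2 for GAL against CTL, 574 (4.30%) had an unadjusted p under 0.05 with edgeR and 260 with DESeq2. GAL against CTL had 2 calls with blocks for pairs of CTL and GAL libraries and 3 without CTL 3 and GAL 3. Without a filter on low counts it had 13, of which 12 were lower with galinex. Within the cytokine background, 0 genes passed with either tool for CTK2+GAL against CTK-2, 545 (4.08%) had an unadjusted p under 0.05 with edgeR and 241 with DESeq2. In an edgeR model of these 2 groups only, 7 genes passed, 6 lower and 1 higher with galinex, with Col16a1 and Kcnt1 among the lower ones. The same comparison had 6 calls without a filter on low counts and 6 with blocks for pairs of CTL and GAL libraries.

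The called gene was Adam11, which encodes a membrane protein of the ADAM family without protease activity and lies at 87724234 to 87741562 on chromosome 10 of mRatBN7.2. Adam11 had 144, 130 and 123 CPM in CTL, 110, 102 and 103 in GAL, 37.6, 40.2 and 37.2 in CTK-2 and 31.1, 30.5 and 31.0 in CTK2+GAL. Every galinex library lay below all 3 libraries without galinex of its background, and the cytokine libraries lay far below the untreated ones. Mean levels were 132 CPM (SD 10.9) in CTL, 105 (SD 4.39) in GAL, 38.3 (SD 1.58) in CTK-2 and 30.9 (SD 0.308) in CTK2+GAL. With galinex, Adam11 fell by 0.33 log2 (SE 0.05, 95% interval −0.44 to −0.23) in 6 of 6 libraries, and edgeR's quasi-likelihood test gave a Benjamini-Hochberg adjusted p of 0.0282, with 4.82e-05 to 0.229 over 23 alternatives. The difference was −0.34 (SE 0.06) without cytokines and −0.31 (SE 0.08) with them, and the interaction was 0.03 (SE 0.11). The cytokine difference of Adam11 was −1.77 log2. The call rested on nearly all libraries: it held with CTL 3 or GAL 1 left out, and leaving out any of the other 10 libraries raised the adjusted p past 0.05, up to 0.229. A fit with 4 group means gave an adjusted p of 0.107 in the same edgeR test for the same direction in 6 of 6 libraries.

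**Figure D1:**
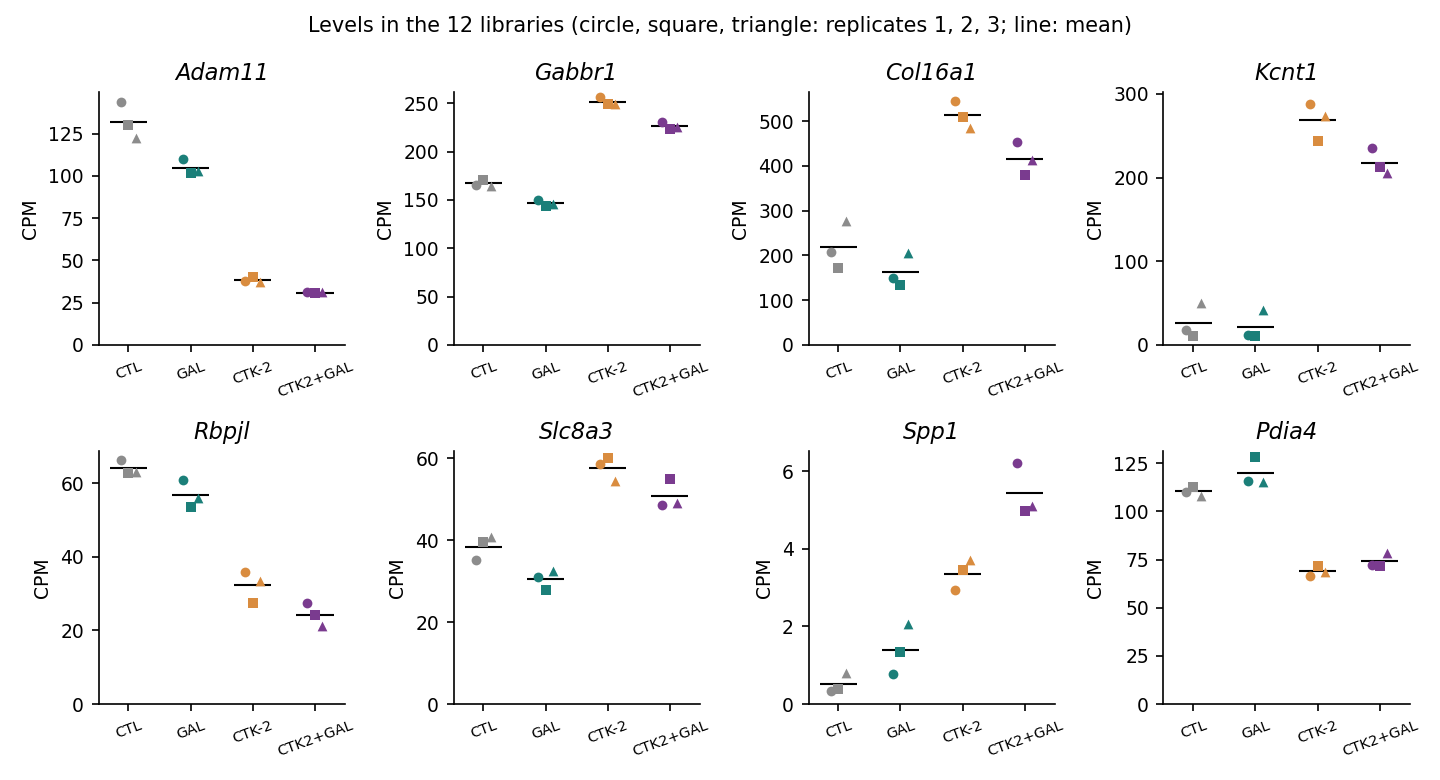
Levels of 8 genes in CPM (vertical axis) for the 12 libraries by group, with the group mean as a line and the replicate number as the marker shape. For Adam11, the galinex libraries lie below the libraries without galinex in both backgrounds, at 102 to 110 against 123 to 144 CPM without cytokines and at 30.5 to 31.1 against 37.2 to 40.2 CPM with them.

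After the data were seen, a block was added for each same-numbered pair of CTL and GAL libraries. After subtraction of the group mean, levels correlated across genes at 0.60 for CTL 3 with GAL 3. CTL 1 and CTL 2 were each at 0.26 with the GAL library of their number, while CTL 1 with GAL 2 was at 0.23 and CTL 2 with GAL 1 at 0.15. Each same-numbered value was thus the highest for its libraries, by a wide margin for the third pair alone, and the labels state no pairing. The block called 19 genes (0.142%), 17 lower and 2 higher with galinex. Without CTL 3 and GAL 3, 9 genes (0.0674%) passed, all 9 lower, and 8 of these were among the 19. Pairs in both backgrounds gave 16 genes, all 16 among the 19. Same-numbered CTK-2 and CTK2+GAL libraries, however, correlated at only 0.06, 0 and 0, against −0.07 to 0.07 for different numbers. Testing all genes without a filter on low counts gave 24 genes, 18 lower and 6 higher. These 4 fits were picked because they called more than 1 gene, and they share libraries, so that a gene called in all of them is not repeated evidence. There were 8 such genes, each lower with galinex, of which Adam11, Col16a1 and Kcnt1 had a symbol, and 29 genes were called in at least 1 of the fits. DESeq2, its size factors, total counts, edgeR's filterByExpr, removal of invariable genes and a replicate block over all groups each called Adam11 alone, and 4 group means called 0 genes with edgeR (822 at an unadjusted p under 0.05) and 1 with DESeq2 (459).

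Col16a1, a fibril-associated collagen chain on chromosome 5 at 142388426 to 142442825, had 208, 171 and 277 CPM in CTL, 149, 134 and 206 in GAL, 544, 510 and 484 in CTK-2 and 452, 379 and 413 in CTK2+GAL. The GAL library was the lower one of each same-numbered pair, although the groups overlapped without cytokines, and with cytokines all galinex libraries were the lower ones. The log2 difference was −0.36 (SE 0.10), lower in 6 of 6 same-numbered comparisons, and edgeR's quasi-likelihood test gave a Benjamini-Hochberg adjusted p of 0.547 without pairs and 2.11e-06 with CTL and GAL pairs (5.50e-10 to 0.958 over 23 alternatives, 4 of them under 0.05). Kcnt1, a sodium-activated potassium channel on chromosome 3 at 8682113 to 8736667, had 17.9, 10.5 and 50.6 CPM in CTL, 11.3, 10.0 and 41.9 in GAL, 288, 244 and 273 in CTK-2 and 235, 213 and 206 in CTK2+GAL. CTL 3 and GAL 3 were far above the other untreated libraries, and all 3 CTK2+GAL libraries were below all 3 CTK-2 libraries. Its log2 difference was −0.29 (SE 0.23; −0.13 without CTL 3 and −0.47 without GAL 3), lower in 6 of 6 same-numbered comparisons, and edgeR's quasi-likelihood test gave Benjamini-Hochberg adjusted p-values of 0.866 without pairs and 0.00162 with CTL and GAL pairs (0.000373 to 0.99987 over 23 alternatives, 4 of them under 0.05). Gabbr1, a subunit of the GABA-B receptor on chromosome 20 at 1464534 to 1493994, had 166, 171 and 165 CPM in CTL, 150, 144 and 146 in GAL, 256, 249 and 250 in CTK-2 and 231, 223 and 226 in CTK2+GAL. The galinex libraries lay below all libraries without galinex in each background, by a small margin. The log2 difference of Gabbr1 was −0.17 (SE 0.03) in 6 of 6 libraries, and edgeR's quasi-likelihood test gave a Benjamini-Hochberg adjusted p of 0.271 without pairs and 0.0286 with CTL and GAL pairs (0.0286 to 0.934 over 23 alternatives, 2 of them under 0.05).

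Genes whose libraries did not overlap in either background were counted next. There were 56 genes (0.420%) with every galinex library lower in both backgrounds, 51 (0.382%) with every galinex library higher in both, and 42 (0.315%) with opposite directions. Those with a symbol were Adam11, Gabbr1, Rbpjl, Trip6, Tle2, Osbpl10, Rasa4, Tiam2, Nod1 and Lss on the lower side, and Dynlt3, Pdia4 and Pdpn on the higher side. Levels were scaled by library size, and for Rasa4, with 5 read pairs in CTL and 1 in GAL, this scaling alone put GAL 3 below CTL 1 at equal counts. An unadjusted p under 0.05 in each background was reached by 37 genes that were lower in both, 11 that were higher in both and 10 with opposite signs. Over all tested genes, the galinex difference had the same sign in both backgrounds for 7489 genes (56.1%, 95% interval 55.3% to 56.9%), 3763 higher and 3726 lower, and opposite signs for 5859. Genes are not independent replicates, so this interval covers counting error only. Leaving out 1 library at a time moved the share between 53.5% (without CTL 3) and 57.5% (without GAL 1). Across genes, the 2 within-background differences were related with a Pearson correlation of 0.05 and a Spearman rank correlation of 0.11.

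**Figure D2:**
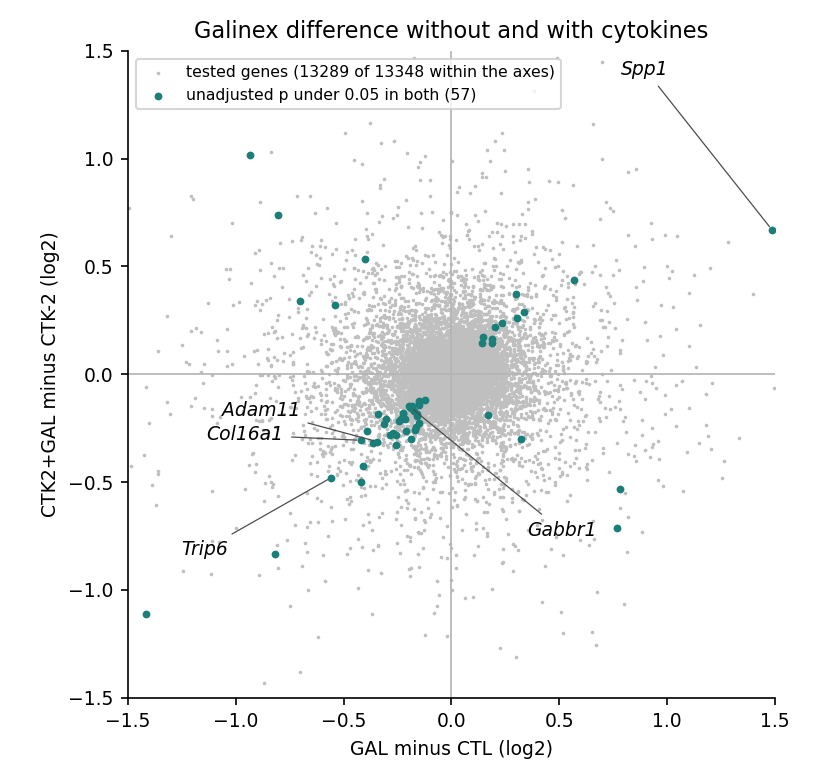
Log2 difference with galinex without cytokines (GAL against CTL, horizontal axis) and with cytokines (CTK2+GAL against CTK-2, vertical axis), 1 point per tested gene within the axes, with genes at an unadjusted p under 0.05 in both backgrounds in colour. Genes beyond the axes are not drawn. Over all tested genes with such p-values, 37 were lower in both, 11 higher in both and 10 opposite, and Adam11 lay at −0.34 and −0.31.

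None of the following genes passed the test with cytokine state as the block and the filter on low counts in place, and those with a symbol were picked after their values were seen, by the smallest p or by the absence of overlap in both backgrounds. Trip6, a LIM protein of focal adhesions, had 7.40, 5.96 and 6.97 CPM in CTL, 5.82, 4.19 and 4.47 in GAL, 11.7, 12 and 9.63 in CTK-2 and 6.22, 8.34 and 8.86 in CTK2+GAL. Its groups did not overlap in either background, and the log2 difference was −0.51 (SE 0.13). Transcriptional regulators on the lower side were Tle2, a Groucho corepressor, at −0.39 (SE 0.11), and Rbpjl, a paralogue of the Notch effector RBPJ, at −0.29 (SE 0.07). Without that filter Rbpjl passed. For Tle2 the difference was −0.69 without and −0.24 with cytokines, with an interaction of 0.45 (SE 0.22) that did not pass. Signalling genes on this side were Tiam2, an exchange factor for Rac, at −0.38 (SE 0.14), Nod1, a sensor of bacterial peptidoglycan, at −0.26 (SE 0.10), and Il3ra, the α chain of the interleukin-3 receptor, at −0.45 (SE 0.14). Rasa4, a calcium-dependent activator of Ras GTP hydrolysis, had −0.98 (SE 0.32) but few counts, with 0.172, 0.199 and 0.486 CPM in CTL and 0, 0 and 0.172 in GAL. Membrane and lipid transport genes included Slc8a3, a sodium-calcium exchanger, at −0.25 (SE 0.06), Osbpl10, an oxysterol-binding protein, at −0.32 (SE 0.09), Dnm1, the GTPase dynamin-1, at −0.21 (SE 0.07), and Atp13a1, an ATPase of the endoplasmic reticulum, at −0.14 (SE 0.04). Plcl2, a phospholipase C relative without catalysis, had −0.21 (SE 0.07), Cep164, a protein of centriolar appendages, −0.19 (SE 0.05), Nrbp2, a pseudokinase, −0.23 (SE 0.07), and the zinc-finger gene Zfp579 −0.16 (SE 0.05). Among genes without a symbol, ENSRNOG00000029260 had −0.28 (SE 0.06) and ENSRNOG00000020950 −0.21 (SE 0.04), and the former was called in 3 of the 4 fits with more than 1 call. ENSRNOG00000054548 had −0.83 (SE 0.18), with mean levels of 6.93 CPM in CTL, 3.95 in GAL, 6.49 in CTK-2 and 3.64 in CTK2+GAL. Its galinex libraries lay below all libraries without galinex in each background. With CTL and GAL pairs, edgeR's quasi-likelihood test gave ENSRNOG00000054548 a Benjamini-Hochberg adjusted p of 0.0428, and it was called in 2 of the 4 fits.

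On the higher side, Spp1 had the largest difference among the symbols picked by smallest p. Spp1, which encodes the secreted phosphoprotein osteopontin, lies on chromosome 14 at 5308885 to 5315162. It had 0.344, 0.397 and 0.811 CPM in CTL, 0.776, 1.34 and 2.06 in GAL, 2.93, 3.45 and 3.71 in CTK-2 and 6.22, 4.97 and 5.10 in CTK2+GAL. GAL 1 lay just below CTL 3 and the other GAL libraries above every CTL library, and all CTK2+GAL libraries were above all CTK-2 libraries. The log2 difference was 0.84 (SE 0.23), higher in 6 of 6 same-numbered comparisons, with a Benjamini-Hochberg adjusted p of 0.547 from edgeR's quasi-likelihood test. Within the backgrounds it was 1.49 (SE 0.49), from only 9 read pairs in CTL and 22 in GAL, and 0.67 (SE 0.25), and the interaction of −0.82 (SE 0.56) did not pass. Dynlt3, a light chain of dynein, had 20.5, 21.1 and 17.2 CPM in CTL, 24.4, 24.3 and 21.1 in GAL, 10.7, 11.1 and 10.4 in CTK-2 and 13.4, 13.1 and 12.4 in CTK2+GAL. All galinex libraries of Dynlt3 were the higher ones in their background, although GAL 3 barely exceeded CTL 2, and the log2 difference was 0.25 (SE 0.09).

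Protein folding genes on the higher side were Pdia4, a disulfide isomerase of the endoplasmic reticulum, at 0.12 (SE 0.04), and Fkbp3, a prolyl isomerase, at 0.19 (SE 0.07). Metabolic enzymes were Acot7, a thioesterase for fatty acyl-CoA, at 0.18 (SE 0.07), Kyat3, a kynurenine aminotransferase, at 0.14 (SE 0.05), Msmo1, a methylsterol oxidase of cholesterol synthesis, at 0.11 (SE 0.05), and Asns, asparagine synthetase, at 0.15 (SE 0.06). Regulators of signalling were Nfkbia, the inhibitor of NF-κB, at 0.15 (SE 0.06), and Usp46, a deubiquitinase, at 0.11 (SE 0.05). Dusp19, a phosphatase gene, had 0.18 (SE 0.07) and Tmbim4, a membrane protein gene, 0.16 (SE 0.07), and each overlapped 1 gene on the same strand. Ston2, an adaptor of endocytosis, had 0.29 (SE 0.12), Pmf1, a kinetochore protein, 0.37 (SE 0.14), and the membrane glycoprotein podoplanin, encoded by Pdpn, 0.26 (SE 0.11). Without a symbol, ENSRNOG00000067358, also called in 3 of those 4 fits, had 0.24 (SE 0.05) and ENSRNOG00000063049 had 0.50 (SE 0.11). Among the 1756 genes with a symbol, whose median was −0.01, an unadjusted p under 0.05 was reached by 108 (6.15%), 33 higher and 75 lower. The share over all tested genes was 6.56%, with 419 higher and 457 lower.

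Collagen chains were collected after Col16a1 had been seen. Of 16 chains with a symbol, 12 were lower and 4 higher with galinex, with a median log2 difference of −0.15, against 0.00054 over all tested genes. An unadjusted p under 0.05 was reached on the lower side by Col16a1, Col20a1 (−0.22, SE 0.08), Col5a3 (−0.19, SE 0.07), Col27a1 (−0.19, SE 0.08) and Col11a2 (−0.20, SE 0.09), and on the higher side by Col12a1 (0.35, SE 0.16). Col20a1 and Col27a1 each overlapped 1 gene on the same strand. Over all tested genes the share at such a p was 6.56%, with 457 of 13348 genes lower. Adjusted over the list alone, 1 chain passed, Col16a1, for which the list was collected, so this is not independent evidence. The median was −0.06 without cytokines and −0.13 with them. Col11a2, a chain of fibrillar collagen XI, had 273, 258 and 190 CPM in CTL, 247, 211 and 178 in GAL, 56.7, 50.7 and 51.1 in CTK-2 and 45.3, 40.7 and 49.5 in CTK2+GAL. Its libraries overlapped without cytokines and did not overlap with them.

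Of 22 listed myelin and late oligodendrocyte genes, 8 had a symbol and were tested. Of these, 5 were higher and 3 lower (median log2 difference 0.01, but −0.01 without CTL 3), and none had an unadjusted p under 0.05. The share over all tested genes was 6.56%, so 0 of 8 does not set these genes apart. Ugt8, which makes galactosylceramide for myelin, had 751, 755 and 709 CPM in CTL, 733, 760 and 807 in GAL, 328, 343 and 317 in CTK-2 and 341, 328 and 372 in CTK2+GAL. These groups overlapped in both backgrounds, and the difference was 0.07 (95% interval −0.02 to 0.15). The member with the largest difference was Mog, a glycoprotein of the outer myelin surface, at 0.24 (SE 0.16), with 0.17 without and 0.34 with cytokines. Nfasc, a cell adhesion gene of myelinating cells, had −0.05 (95% interval −0.11 to 0.02), beside −1.07 for the cytokines. Nkx2-2, a transcription factor of committed oligodendrocytes, had −0.05 (SE 0.04), and the 3 OPC genes had a median of −0.00254 (−0.03 without GAL 1, 0.02 without CTL 1).

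Lipid genes, like most tested genes, gave narrow intervals. All 21 tested cholesterol synthesis genes had a 95% interval within 0.59 of zero, as had 83.0% of all tested genes and 1529 of 1756 with a symbol. Of the 21, 17 were higher and 4 lower, and the median was 0.03 (0.06 without CTL 2), beside an SD between libraries of a group of 0.05. For this list and those below, all tested genes had 6700 higher and 6648 lower, and those with a symbol 803 and 953. Genes of a list are not independent replicates. Hmgcs1, an early enzyme of this pathway, had 1501, 1558 and 1318 CPM in CTL, 1489, 1601 and 1429 in GAL, 622, 627 and 610 in CTK-2 and 623, 631 and 672 in CTK2+GAL. Its galinex libraries overlapped the others, and the difference was 0.05 (95% interval −0.04 to 0.14), beside −1.23 for the cytokines. Lss, lanosterol synthase, was the member with every galinex library lower in both backgrounds, at −0.10 (SE 0.04), and Msmo1 was at 0.11. Of 13 tested fatty acid synthesis genes (30 listed), 7 were higher and 6 lower (median 0.01, but −0.02 without CTL 3 and 0.04 without GAL 3). Acsl4, an acyl-CoA ligase, was at 0.09 (SE 0.04) and the desaturase gene Scd2 at 0.01 (SE 0.04).

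Lists around the receptor and its second messengers were examined with the same fit. Members without a symbol could not be identified, so only a part of each list was tested. These parts were 12 of 58 genes around GPR17 signalling, 13 of 74 for phosphoinositides and phospholipase C and 6 of 43 for phospholipase D. They were 13 of 35 immediate early genes, 6 of 18 thyroid hormone targets and 11 of 32 integrated stress response genes. Of the 12 genes around GPR17 signalling, 8 were higher and 4 lower, with a median of 0.06 and no unadjusted p under 0.05. With 6.56% of all tested genes at such a p, 0 of 12 does not set the list apart. Id2 and Xaf1, which are not genes of G protein, cAMP or calcium signalling, were among the 12, and Xaf1 was counted with the interferon-stimulated genes as well. Without them 6 were higher and 4 lower, and the median was 0.06. Crem, a transcription factor driven by cAMP, had 0.21 (SE 0.12), and Gng12, a G protein γ subunit, 0.04 (SE 0.04). Of 13 phosphoinositide and phospholipase C genes, 11 were lower and 2 higher (median −0.03), and without CTK-2 2 the median was −0.07. The 6 phospholipase D genes had a median of 0.01, which was 0.06 without CTL 1 and −0.04 without CTL 3. Of 13 immediate early genes, 10 were lower and 3 higher (median −0.02, but −0.08 without CTK-2 2 and −0.000395 without CTK-2 1), led by Zfp36, a protein that destabilizes messenger RNA, at −0.33 (SE 0.18). The 6 thyroid hormone targets had a median of 0.01 (−0.02 without CTL 1, 0.05 without CTL 3), and Thrb, a thyroid hormone receptor, had 0.13 (SE 0.09). Of 11 integrated stress response genes, 8 were higher and 3 lower (median 0.03), with medians of 0.06 without CTL 2 and 0.07 without GAL 1.

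Of 28 interferon-stimulated genes, 17 were higher and 11 lower (median 0.02), and 16 of them had a 95% interval within 0.59 of zero. The 17 NF-κB genes had a median of −0.02, the 14 genes of MHC and antigen processing 0.00502 and the 5 chemokine genes −0.06, which was 4.55e-05 without CTL 3. Of those 14 MHC and antigen processing genes, 8 had a 95% interval within 0.59 of zero. Cxcl10, a chemokine induced by interferon, had 175, 197 and 185 CPM in CTK-2 and 168, 180 and 180 in CTK2+GAL, and at most 0.649 CPM in the untreated libraries. Those cytokine libraries overlapped, and the difference was −0.08 (SE 0.08). The 9 cell cycle genes had a median of −0.06, which was −0.17 without CTL 3, 0.02 without CTL 1 and 0.05 without GAL 3, with −0.27 (SE 0.16) for Cdk1, the kinase of mitotic entry. Small lists had medians of 0.02 (2 mitochondrial ribosome genes), 0.05 (2 nuclear genes of oxidative phosphorylation), 0.09 (2 proteasome genes), 0.11 (2 of 46 listed genes of the endoplasmic reticulum) and 0.02 (6 of 45 listed lysine degradation genes). The 2 proteasome genes were Psme1 and Psme2, which were also among the 14 MHC and antigen processing genes. Their median therefore does not stand for the proteasome as a whole, and their cytokine differences were 2.98 and 2.50 log2. With 1 library left out, the mitochondrial ribosome median ran from −0.03 to 0.07. That of oxidative phosphorylation ran from 0.02 to 0.09 and that of lysine degradation from 0.0068 to 0.037. With each library left out in turn, 10 of 26 list medians kept their sign and 16 did not. The proteasome median ran from −0.22 without GAL 3 to 0.35 without CTL 3, that of MHC and antigen processing from −0.15 to 0.10 and that of the interferon-stimulated genes from −0.09 to 0.11 without the same libraries. The NF-κB median ran from −0.03 without GAL 3 to 0.0046 without CTL 3. In the lists other than the collagens, 1 gene passed when adjusted over the list alone, Pdia4 among the 2 endoplasmic reticulum genes, with a Benjamini-Hochberg adjusted p of 0.0299 from edgeR's quasi-likelihood test for a log2 difference of 0.12, higher in 6 of 6 libraries. This adjustment covered only 2 of 46 listed genes and was repeated in 26 lists without correction across them, so no conclusion is drawn from it. Over all 13348 genes the adjusted p of Pdia4 in that edgeR test was 0.676, for the same 6 of 6 libraries, with a log2 difference of 0.12.

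**Figure D3:**
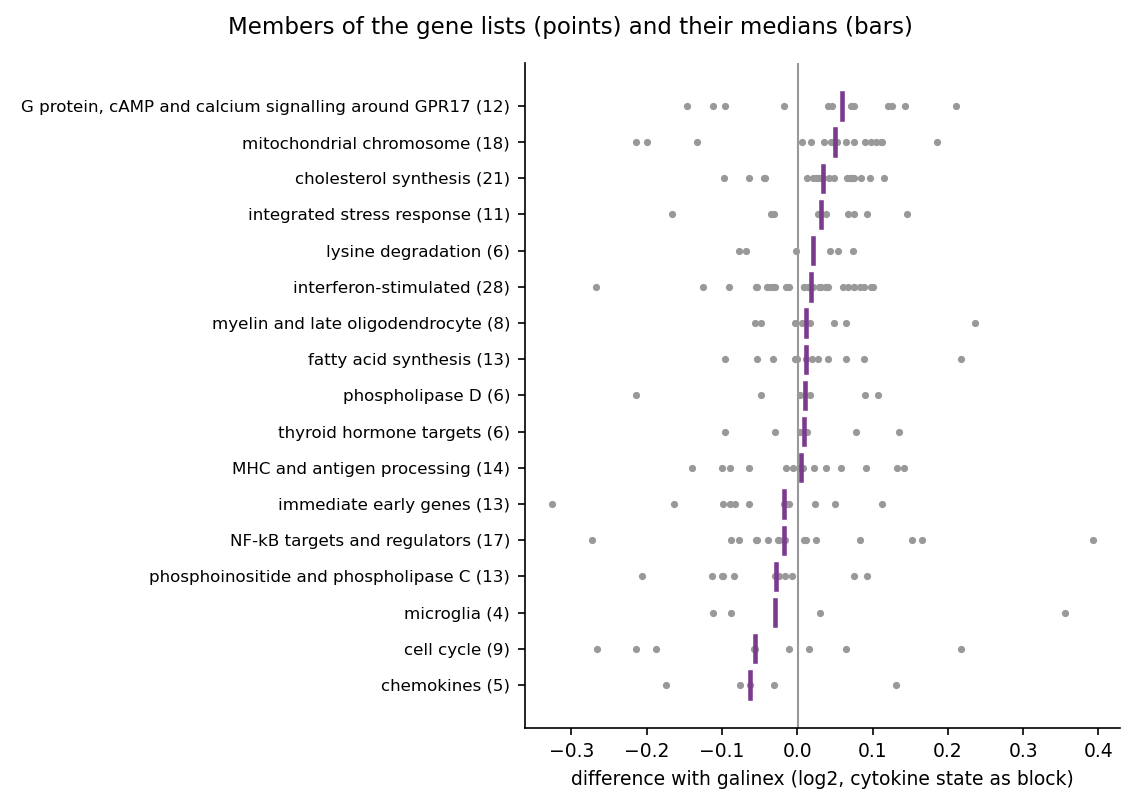
Log2 difference with galinex (horizontal axis) of each tested member (points) and the median (bars) for the lists with at least 4 tested members, given in parentheses, with the median of all tested genes as a vertical line. The collagens are not drawn, and the medians of the lists drawn ran from −0.06 for the chemokines to 0.06 for G protein, cAMP and calcium signalling.

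The interaction, which asks whether the galinex difference depended on the cytokines, had 0 calls (0%) with edgeR and 0 with DESeq2. At an unadjusted p under 0.05 there were 376 genes (2.82%) with edgeR, 188 in each direction, and 123 with DESeq2. Without a filter on low counts 10 genes passed, 9 with a positive and 1 with a negative interaction, and without CTL 3 and GAL 3 there were 6, all 6 positive. Syndig1, a regulator of excitatory synapses, had 13.1, 11.7 and 12.2 CPM in CTL, 11.3, 10.2 and 7.39 in GAL, 4.81, 5.09 and 5.19 in CTK-2 and 7, 8.52 and 6.65 in CTK2+GAL. Galinex libraries were the lower ones without cytokines and the higher ones with them, and the interaction was 0.94 (SE 0.26), which did not pass. Neither did St3gal1, a sialyltransferase gene, at −1.31 (SE 0.39), nor Id1, an inhibitor of differentiation factors, at 0.48 (SE 0.15).

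Markers of other cells were summed for each library. The 4 microglial genes, of which P2ry12 was the most abundant, summed to 2.24, 4.37 and 9.73 CPM in CTL, 3.10, 3.18 and 10.5 in GAL, 24.3, 18.7 and 18.5 in CTK-2 and 19.6, 20.6 and 20.8 in CTK2+GAL. Galinex libraries overlapped the others in both backgrounds, and among the untreated libraries the sum was higher in replicate 3 of both groups than in the others. Aldoc, an astrocyte enzyme, differed by 0.02 (SE 0.05), Sox9, also expressed in OPCs, by −0.05 (SE 0.07), Tubb3, a neuronal tubulin, by 0.04 (SE 0.05) and Col1a2, a fibroblast collagen, by −0.18 (SE 0.19). No cause of the galinex differences was tested against these levels.

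Gene length went along with the direction of the galinex difference. The median log2 difference was 0.03 for the tenth of genes with the shortest exons (55 to 1192 bases) and −0.02 for the longest (6771 to 41093 bases), and the share of higher genes was 58.7% and 36.5%. The shift had the same direction in both backgrounds, from 0.03 to −0.01 without cytokines and from 0.06 to −0.03 with them. It was within the spread of single libraries, where the short-minus-long difference, relative to the mean of the background, was −0.0743, 0.173 and −0.0954 in CTL and −0.0782, 0.0751 and 0.0557 in GAL. In CTK-2 it was −0.0948, 0.0749 and −0.0769, and in CTK2+GAL −0.0927, 0.0975 and 0.137. The sign followed the replicate number, with replicate 1 negative and replicate 2 positive in all 4 groups, and galinex and vehicle libraries differed in sign only in replicate 3. The fitted short-minus-long difference of 0.05 was 0.03 without CTK2+GAL 3, 0.08 without CTK2+GAL 1 or CTK-2 2 and 0.10 without CTL 2. The 18 tested genes of the mitochondrial chromosome had a median of 0.05 (0.00817 without GAL 3, 0.11 without GAL 1), 15 higher and 3 lower, and the share of mitochondrial counts per library was 2.43% to 3.11%. That share was 2.68%, 3.11% and 2.51% in CTL and 2.43%, 3.04% and 3.08% in GAL. It was 2.60%, 3.01% and 2.69% in CTK-2 and 2.56%, 3.04% and 3.05% in CTK2+GAL, so the galinex library was clearly the higher one of the same number only in replicate 3. Whether length contributed to the difference of any named gene was not tested.

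The precision of the galinex comparison can be read from its intervals. The median SE was 0.08 log2, and the 95% interval lay within 0.59 of zero for 11074 genes (83.0%) and within 1 log2 for 12757 (95.6%). Among genes with a symbol, 1529 of 1756 had an interval within 0.59 of zero. For genes such as B2m and Ifi47, which differed strongly between replicate 3 and the other untreated libraries, the intervals were wide, at −1.38 to 1.56 and −1.15 to 1.07 in the fit without pairs. B2m was higher with galinex in 6 of 6 same-numbered comparisons, at 0.10 with CTL and GAL pairs, and did not pass with pairs either.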

How the data were processed

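The authors deposited counts of read pairs per gene, made with featureCounts 2.0.0 on the exons of Ensembl release 112 (mRatBN7.2) after FastQC and STAR. Genes were tested at a mean count of 5 or more, with TMM factors and edgeR 4.0.16 (R 4.3.3, limma 3.58.1) in an additive model of cytokine and galinex, and with 4 group means for differences within backgrounds. Benjamini-Hochberg adjustment covered all tested genes, and a call needed an adjusted p of at most 0.05. DESeq2 1.42.0 was the second tool. SE is the absolute log2 difference over the square root of F. Symbols came from a numeric match of the study's gene table (1757 of 1786 entries, 99.9% on the same chromosome, 5.57% after shuffling). Members, lists and the rule for named genes (calls filled to the 10 smallest p per direction, the 5 smallest of those alike in both backgrounds, the smallest p and the highest level of each list) were chosen with earlier results of these data known. List members without a symbol could not be identified, and the cytosolic ribosome and sex-linked lists had 0 tested members. Pairs were taken from replicate numbers, with CTL and GAL correlations of 0.26, 0.26 and 0.60 for the same number and −0.44 to 0.23 for different numbers.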

Additional observations from a re-analysis of the deposited data

How the results depend on the processing

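The alternatives were DESeq2, its size factors, total counts, other filters, replicate blocks, 4 group means, models of 2 groups and each library left out, and the pairs of CTL and GAL and the fits without CTL 3 and GAL 3 were added after seeing the data. The galinex calls numbered 24 without a filter on low counts (20963 genes tested, all 24 with a mean count of at least 5). They numbered 19 with CTL and GAL pairs, 16 with pairs in both backgrounds and 9 without CTL 3 and GAL 3. There were 0 past 0.59 in the fit without pairs, 0 with 4 group means and 0 to 1 with 1 library left out. The 19 calls with CTL and GAL pairs included ENSRNOG00000054548, which was past 0.59 at −0.83. GAL against CTL had 13 without a filter, 2 with CTL and GAL pairs and 3 without CTL 3 and GAL 3. CTK2+GAL against CTK-2 had 7 in a model of 2 groups only, 6 without a filter and 6 with CTL and GAL pairs, and the interaction had 10 without a filter and 6 without CTL 3 and GAL 3. The other alternatives, including a replicate block over all groups, gave the counts stated above. The share of genes alike in sign was 53.6% without CTL 3 and GAL 3 and 53.5% to 57.5% with 1 library left out. Of 468 values of 26 list medians under the alternatives, 463 moved by less than the spread between libraries. That spread could exceed the median itself, as for the proteasome list (SD 0.96, median 0.09), so these counts do not show that the medians were stable. With each library left out in turn, 16 of the 26 did not keep their sign. Of 1949 values of 85 named genes, 1888 kept sign and side of the threshold, 11 lost the call (all Adam11), 18 gained one and 32 changed sign. Signs changed for Psme1 with DESeq2 (−0.021), Ifi47 without CTL 3 and GAL 3 (0.0285) and Col1a2 with 4 group means (0.0463). With 1 library left out, the ranges were −0.0157 to 0.057 (Aldoc), −1.05 to 1.29 (B2m), −0.0382 to 0.0158 (Ccnd1), −0.31 to 0.15 (Csf1), −0.0295 to 0.0578 (Hcn2), −0.40 to 0.42 (Ifi47), −0.46 to 0.12 (Ifit3), −0.0268 to 0.00798 (Jund), −0.19 to 0.00254 (P2ry12), −0.29 to 0.36 (Psme1), −0.15 to 0.33 (Psme2), −0.00894 to 0.0225 (Ptprz1), −0.0224 to 0.043 (Scd2) and −0.00562 to 0.0746 (Tubb3). The cause was not tested. The Gpr17 level was not run, because no symbol was matched to it. Counts limit low genes such as Rasa4 and Ifit3, and GAL 1 had the fewest read pairs.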
